A study of Mus musculus with 3 samples.

Results

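The region described here is the large olfactory receptor gene cluster of mouse chromosome 2, taken as every 10 kb bin of mm9 chr2:85200001-89900000. This gave 470 bins of the 17846 on chromosome 2 that held a read, and of 255754 on chromosomes 1 to 19 and X. The bins were chosen by coordinates and not by any measured value. The 5 Mb on each side, 500 bins each, served as contrast: a left flank at chr2:80200001-85200000 and a right flank at chr2:89900001-94900000. The data were chromatin immunoprecipitation sequencing (ChIP-seq) of C57BL/6 mouse embryonic stem (ES) cells, grown without feeder cells on gelatin with serum and ESGRO. Each of 3 antibodies had 1 library: TET2 (an in-house antibody), OGT (Novus) and H2B S112GlcNAc. The labels name no genetic change or treatment of the cells. No input library was used here, and a difference between antibodies has no replicate check.

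Olfactory receptors are G protein-coupled receptors of the nose, encoded by the largest gene family of the mouse. A mature olfactory neuron expresses a single receptor allele, and the genes are kept silent in other cell types. TET2 oxidises 5-methylcytosine, a base found mostly at CpG dinucleotides. OGT is the transferase of the sugar GlcNAc (N-acetylglucosamine) onto serines and threonines, and the third target is histone H2B that carries this sugar on a serine. Expression was not measured in these files, so silence of the receptor genes is background and was not checked.

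In the RefSeq tables of GRCm38.p6 the matching run of receptor genes on chromosome 2 reaches from Olfr987 to Olfr1274. It holds 293 receptor genes and pseudogenes, of which 222 are protein-coding. The run contains 3 protein-coding genes of other families: Fads2b, Pramel7 and Pramel6. Since this build differs from that of the files, genes were not placed in bins. Which genes at the ends of the run lie beyond the region was not determined.

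What the receptor genes share beyond their place is a start region that is poor in CpG. RefSeq windows of 300 bases, 250 before to 50 after the gene start, were found for 186 of the 222 protein-coding receptor genes. Their median GC content was 32.0%, against 57.0% in 69 protein-coding genes of other families within 5 Mb of the run and 56.3% in all 17492 protein-coding genes with a sequence. The median number of CpG was 1 in the receptor windows, 18 in the neighbouring genes and 13 in all genes. No CpG at all was found in 67 receptor windows (36.0%), and in 1 of the 69 neighbouring windows. A GC content of at least 50% together with an observed over expected CpG of at least 0.6, as in CpG islands, was met by 0 of 186 receptor windows, 38 of 69 neighbouring windows (55.1%) and 45.7% of all genes. Receptor genes elsewhere in the genome were alike in this, with a median of 1 CpG in 758 windows. In 130 of the 186 receptor windows (69.9%) the annotated start was an ATG, so many of these windows lie before the coding sequence and not before a mapped transcription start. The start was an ATG in 1 of the 69 neighbouring windows (1.45%) and in 9.55% of all genes. The GC and CpG contrast thus sets partly unlike windows side by side, and the part of this was not tested.

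To show this contrast, the windows of the first, middle and last receptor gene with a sequence and of the nearest protein-coding gene of another family with a sequence on each side are printed below, from RefSeq GRCm38.p6, 5′ to 3′ on the gene's strand. Lrrc55 (left) encodes a leucine-rich repeat protein, and Ptprj (right) a receptor-type tyrosine phosphatase, for which the first listed start was taken. Capitals mark each CpG.
Olfr988 (minus strand): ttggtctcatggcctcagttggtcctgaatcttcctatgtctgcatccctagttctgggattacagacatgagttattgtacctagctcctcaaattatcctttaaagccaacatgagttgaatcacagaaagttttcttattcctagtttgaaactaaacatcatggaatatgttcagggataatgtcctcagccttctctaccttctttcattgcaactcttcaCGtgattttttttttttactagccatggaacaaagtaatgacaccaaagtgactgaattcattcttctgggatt
Olfr1152 (plus strand): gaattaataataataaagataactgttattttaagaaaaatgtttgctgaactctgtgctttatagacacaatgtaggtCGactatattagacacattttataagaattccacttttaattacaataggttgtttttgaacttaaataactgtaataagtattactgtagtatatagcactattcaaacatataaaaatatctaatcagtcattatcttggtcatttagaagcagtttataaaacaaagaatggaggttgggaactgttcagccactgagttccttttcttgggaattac
Olfr1274 (plus strand): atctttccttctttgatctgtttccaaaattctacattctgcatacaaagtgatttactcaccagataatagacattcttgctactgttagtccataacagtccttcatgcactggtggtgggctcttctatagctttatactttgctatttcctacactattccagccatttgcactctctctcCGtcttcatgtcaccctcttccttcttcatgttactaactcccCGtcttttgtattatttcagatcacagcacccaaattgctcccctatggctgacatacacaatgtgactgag
Lrrc55 (minus strand): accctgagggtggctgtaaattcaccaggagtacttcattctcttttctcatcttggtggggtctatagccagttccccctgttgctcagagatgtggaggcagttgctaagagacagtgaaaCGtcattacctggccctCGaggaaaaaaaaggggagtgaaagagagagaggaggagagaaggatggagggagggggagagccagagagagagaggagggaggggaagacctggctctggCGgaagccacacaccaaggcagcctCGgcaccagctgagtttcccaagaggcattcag
Ptprj (minus strand): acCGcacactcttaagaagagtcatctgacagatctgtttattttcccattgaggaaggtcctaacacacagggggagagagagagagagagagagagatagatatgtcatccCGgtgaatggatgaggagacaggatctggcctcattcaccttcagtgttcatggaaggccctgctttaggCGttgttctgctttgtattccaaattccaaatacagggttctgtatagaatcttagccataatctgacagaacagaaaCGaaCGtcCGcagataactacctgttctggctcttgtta
The receptor windows held 1, 1 and 2 CpG at 38.0%, 28.0% and 40.7% GC. Those of Lrrc55 and Ptprj held 4 and 6 CpG at 54.7% and 45% GC. Both fell below the median of the neighbouring genes, so the nearest genes understate the contrast of the sets.

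All 3 antibodies gave few reads in the receptor region. The region held 2986 TET2, 1734 OGT and 3859 H2B S112GlcNAc positions, a position being a distinct 5′ end and strand counted once. Per 10 kb this was 6.35 in TET2 (95% counting interval 6.13 to 6.59), 3.69 in OGT (3.52 to 3.87) and 8.21 in H2B S112GlcNAc (7.95 to 8.47). The median bin of chromosome 2 held 11, 6 and 13 positions. Relative to it the density of the region was 0.578 in TET2 (0.557 to 0.599), 0.615 in OGT (0.586 to 0.645) and 0.632 in H2B S112GlcNAc (0.612 to 0.652). These medians are small whole numbers, so a step of 1 position in a median moves its ratio. Relative to the chromosome 2 mean of 13.3, 7.60 and 16.2 per 10 kb, the ratios were 0.477, 0.485 and 0.507. Over the whole genome the TET2 library counted 3297665 positions from 3832237 reads, the OGT library 1878601 from 2179445 and the H2B S112GlcNAc library 4024073 from 4647963.

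Both flanks were denser than the region in every library. For TET2 the left flank had 9.63 and the right flank 17.5 positions per 10 kb, so the region stood at 0.659 (0.630 to 0.690) of the left and 0.363 (0.349 to 0.379) of the right. For OGT the flanks had 5.71 and 9.70 per 10 kb, and the region stood at 0.646 (0.608 to 0.686) and 0.380 (0.360 to 0.402). For H2B S112GlcNAc they had 11.6 and 21.0 per 10 kb, and the region stood at 0.711 (0.682 to 0.741) and 0.390 (0.376 to 0.405). Against both flanks together the ratio was 0.469 (0.450 to 0.488) in TET2, 0.479 (0.454 to 0.504) in OGT and 0.504 (0.486 to 0.522) in H2B S112GlcNAc. All of these intervals lay below 1, and they cover the counting of reads alone.

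**Figure D1:**
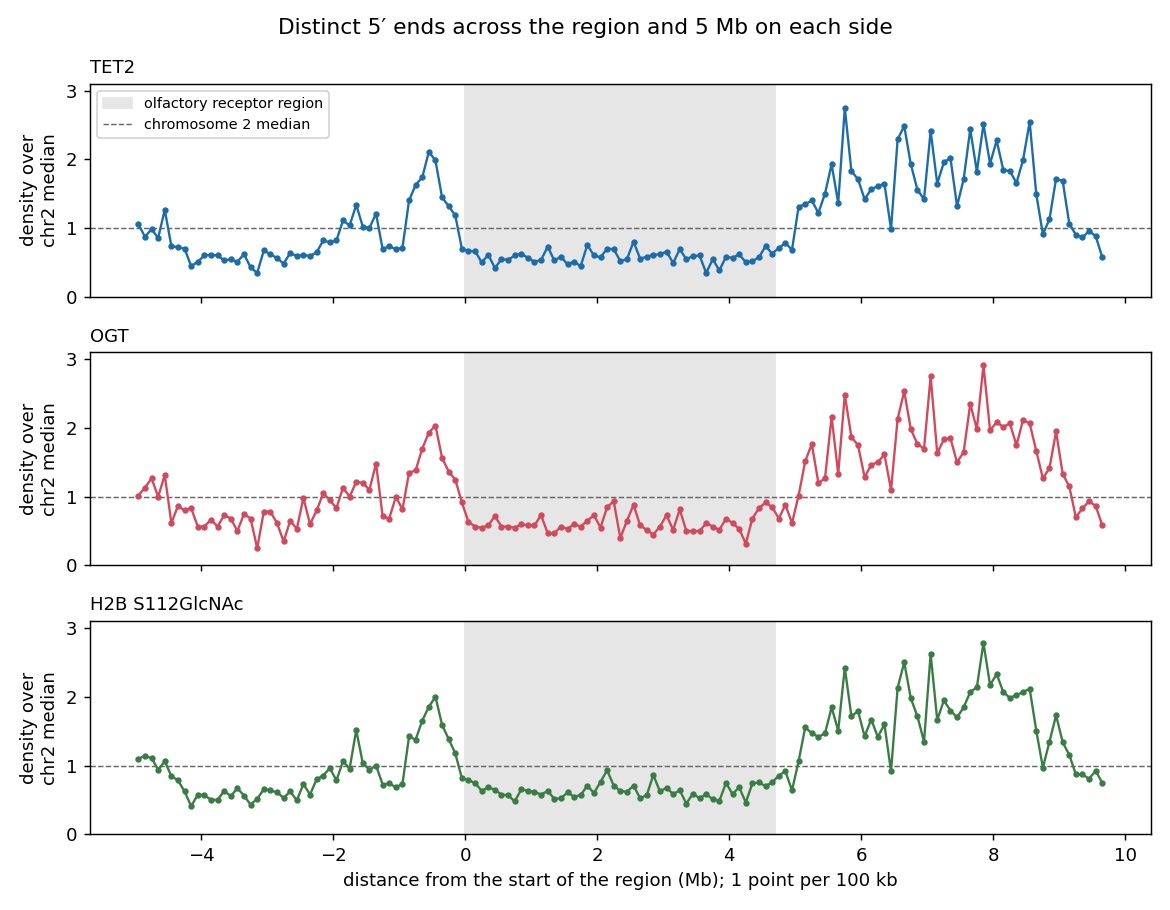
Density of distinct 5′ ends in 100 kb steps, over the chromosome 2 median, against the distance from the start of the region in Mb, with 1 panel per library; grey marks the region and the dashed line the chromosome 2 median. The 47 points inside the region stay below the dashed line in each library, and the low level runs on for about 300 kb past its right end.

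Along the region the density stayed low, with some variation from part to part. In 47 stretches of 100 kb, TET2 had 38 positions at the lowest, 63 at the median and 88 at the highest. OGT had 19, 35 and 56, and H2B S112GlcNAc 58, 81 and 121. No stretch of any library reached the chromosome 2 median, the highest being 0.80 times it in TET2, 0.933 in OGT and 0.931 in H2B S112GlcNAc. The lowest and the highest stretch differed between libraries: the lowest began at 88800001 in TET2, 89400001 in OGT and 88500001 in H2B S112GlcNAc, and the highest at 87700001, 87400001 and 87300001. In 10 parts of 470 kb the density ran from 5.70 to 7.0 per 10 kb in TET2, from 3.26 to 4.45 in OGT and from 6.98 to 9.72 in H2B S112GlcNAc. The fifth part, chr2:87080001-87550000, was highest in TET2 with 329 positions and in H2B S112GlcNAc with 457. For OGT its 207 positions came just below the 209 of the last part. The eighth part, from 88490001, was lowest in OGT with 153 positions and in H2B S112GlcNAc with 328, while the ninth was lowest in TET2 with 268. Per 10 kb, H2B S112GlcNAc had 9.72 (8.85 to 10.7) in the fifth part and 6.98 (6.24 to 7.78) in the eighth, and OGT had 4.45 (3.86 to 5.09) in the last and 3.26 (2.76 to 3.81) in the eighth, intervals that did not meet. In TET2 the intervals of the highest part, 7.0 (6.26 to 7.80), and the lowest, 5.70 (5.04 to 6.43), overlapped. In each library these are the highest and lowest of 10 parts, picked after ranking. Their intervals therefore cannot show whether the parts varied by more than counting error.

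The edges were gradual and not quite where the coordinates of the region put them. On the left, TET2 fell from 232 positions in the 100 kb from 84600001 to 130 from 85000001, 77 from 85100001 and 73 from 85200001, the first stretch of the region. OGT went from 116 to 75, 55 and 38 over the same stretches, and H2B S112GlcNAc from 241 to 153, 106 and 102. On the right the low level continued into the flank. The 3 stretches from 89900001, 90000001 and 90100001 had 78, 86 and 75 TET2 positions, and the next had 144. OGT had 41, 53 and 37, and then 61. H2B S112GlcNAc had 111, 119 and 83, and then 138. The values of these 3 stretches lay within the range of the region, and those from 90200001 lay above it. Extended to 90200000 the region stood at 0.477, 0.484 and 0.512 of its flanks, close to the values above.

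Low density was not particular to the receptor region within this stretch of chromosome 2. Of the 50 stretches of 100 kb in the left flank, 29 in TET2, 27 in OGT and 30 in H2B S112GlcNAc were no higher than the highest stretch of the region. In the right flank it was 4, 8 and 9 of 50. The lowest left stretch, from 82000001 in TET2 and OGT, had 38 TET2 and 15 OGT positions, level with or below the lowest of the region. Chromosome 2 was also cut into 37 stretches of 4.7 Mb tiled outwards from its borders. The region had the lowest density of the 37 in each library, but by little. The next, chr2:42900001-47600000, had 6.48 TET2, 3.89 OGT and 8.77 H2B S112GlcNAc positions per 10 kb, against 6.35, 3.69 and 8.21. The counting intervals of the region held the TET2 value of that stretch and not the other 2. This leaves out the counting error of the stretch itself, which had 1826 OGT positions against 1734 in the region. For H2B S112GlcNAc it had 4121 against 3859. Whether the region was lower by more than the counting error of both was not tested. Of 496 such stretches on chromosomes 1 to 19, 10 were lower than the region in TET2, 9 in OGT and 13 in H2B S112GlcNAc. Of 34 on chromosome X, 21 were lower in each library. The median X stretch had 5.67 TET2, 3.34 OGT and 7.16 H2B S112GlcNAc positions per 10 kb. On chromosomes 1 to 19 the medians were 11.9, 6.79 and 14.8, and X densities were not scaled for this.

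Single bins seldom rose to the chromosome 2 median. In the 470 bins the TET2 counts had a median of 6, with 4 to 8 as the middle range from the first to the third quartile and a maximum of 20. OGT had a median of 3 (2 to 5, maximum 11) and H2B S112GlcNAc of 8 (6 to 10, maximum 21). At or above the median of chromosome 2 were 46 bins in TET2 (9.79%), 89 in OGT (18.9%) and 61 in H2B S112GlcNAc (13.0%). By definition the larger part of chromosome 2 bins lies at or above its median. Bins tied with the median were 5.19% of chromosome 2 bins in TET2, 9.54% in OGT and 4.99% in H2B S112GlcNAc, so these shares compare poorly between libraries. In the left flank the shares were 31.0%, 45.4% and 33.6%, and in the right flank 76.4%, 79.2% and 79.6%.

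Bins at 0.5 times the chromosome 2 median or less numbered 211 in TET2, 44.9% of the region against 17.4% of all chromosome 2 bins. For OGT they numbered 236, 50.2% against 22.3%, and in H2B S112GlcNAc 162, 34.5% against 11.8%. No bin reached 2 times the median in any library, against 15.7% of chromosome 2 bins in TET2, 17.6% in OGT and 15.5% in H2B S112GlcNAc. A count of 0 among 470 bins allows a share of up to about 0.638%, an approximate upper limit and not an exact interval. In the left flank 30, 35 and 18 bins reached it and in the right flank 142, 164 and 143. Shares past a fold hold more counting noise in the shallower OGT library. Empty bins of the region numbered 2 in TET2 (0.426%), 18 in OGT (3.83%) and 0 in H2B S112GlcNAc. On chromosome 2 the shares were 0.151%, 1.20% and 0.0448%. A lower density by itself gives more empty bins.

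**Figure D2:**
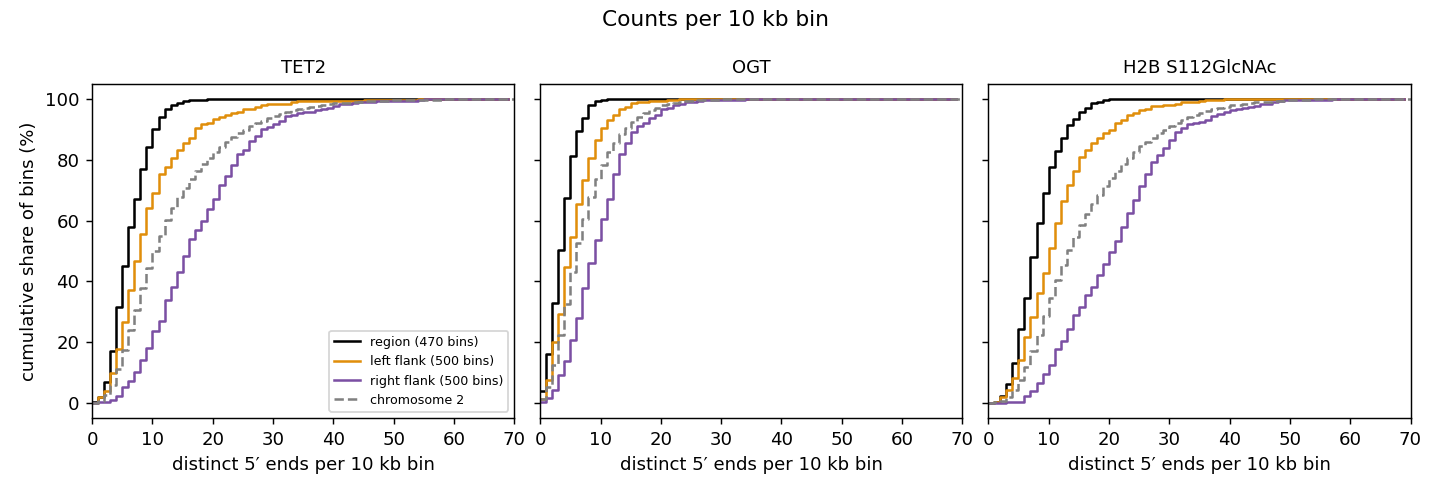
Cumulative share of 10 kb bins (%) against distinct 5′ ends per bin, for the region, each flank and chromosome 2, with 1 panel per library. The curve of the region lies left of the others and ends at 20 positions in TET2, 11 in OGT and 21 in H2B S112GlcNAc, while flank bins reach 65, 44 and 68.

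The bins with the most positions differed between antibodies, though a bin picked as the highest of 1 library tends to be less extreme in the others. The TET2 maximum was 20 positions at chr2:87000001-87010000, where OGT had 8 and H2B S112GlcNAc 13. The next in TET2 was chr2:89800001-89810000 with 19, beside 5 OGT and 15 H2B S112GlcNAc positions. Bins from 86450001, 89220001 and 87740001 followed with 16, 16 and 15 TET2 positions. For OGT the maximum of 11 was reached from 87710001, with 10 TET2 and 13 H2B S112GlcNAc positions, and from 89220001, with 16 and 10. The latter bin was the only one among the 5 highest of more than 1 library, with ties for the fifth place taken by start. At that place 2 bins tied in TET2 with 15 positions and 5 in OGT with 9. OGT bins from 85290001, 85350001 and 85920001 had 10, 10 and 9 positions. For H2B S112GlcNAc the maximum of 21 fell at chr2:88080001-88090000, a bin with 7 TET2 and 0 OGT positions. Its next bins, from 85670001, 86180001, 87230001 and 89100001, had 20, 19, 19 and 19 positions, beside 4 to 8 of TET2 and 4 to 8 of OGT.

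At the low end the bins with the fewest positions in each library were taken, with ties by start. A bin picked as the lowest of 1 library tends to be less extreme in the others through counting error alone. The bin from 86290001 had 0 TET2, 0 OGT and 4 H2B S112GlcNAc positions. The bin from 86510001 had 0 TET2 but 4 OGT and 10 H2B S112GlcNAc positions, and that from 86770001 had 1, 1 and 11. The first empty OGT bins, from 85780001, 85820001 and 85880001, had 9, 3 and 2 TET2 positions and 8, 5 and 4 of H2B S112GlcNAc. The lowest H2B S112GlcNAc bins, from 88320001 and 89080001 with 1 position and from 86060001 with 2, had 6, 3 and 8 TET2 and 2, 1 and 2 OGT positions. Of these low bins, those from 85780001, 86510001 and 86770001 met the rule for a difference between antibodies given below, which a pick by low counts in 1 library favours.

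The bins of the region were also more even than those of the flanks. The variance of the bin counts over their mean, which is 1 for counting noise alone, was 1.5 in TET2, 1.26 in OGT and 1.58 in H2B S112GlcNAc. In the left flank it was 5.12, 2.37 and 3.91, and in the right flank 4.72, 2.84 and 4.25. With counting noise taken off, the spread relative to the mean was 0.281, 0.267 and 0.266 in the region, 0.654, 0.490 and 0.502 in the left flank and 0.462, 0.436 and 0.393 in the right flank. Among the 37 stretches of 4.7 Mb of chromosome 2 the region had the lowest variance over mean in each library, with 2.15, 1.37 and 1.86 as the next values. Of the 496 on chromosomes 1 to 19, 1, 5 and 4 were lower. For a given relative spread, variance over mean falls as density falls. The relative spread past counting noise was lower in 0, 2 and 2 of the 37 stretches, so on that scale the region ranked lowest in the TET2 library alone. On chromosomes 1 to 19 it was lower in 3, 13 and 23 of the 496.

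**Figure D3:**
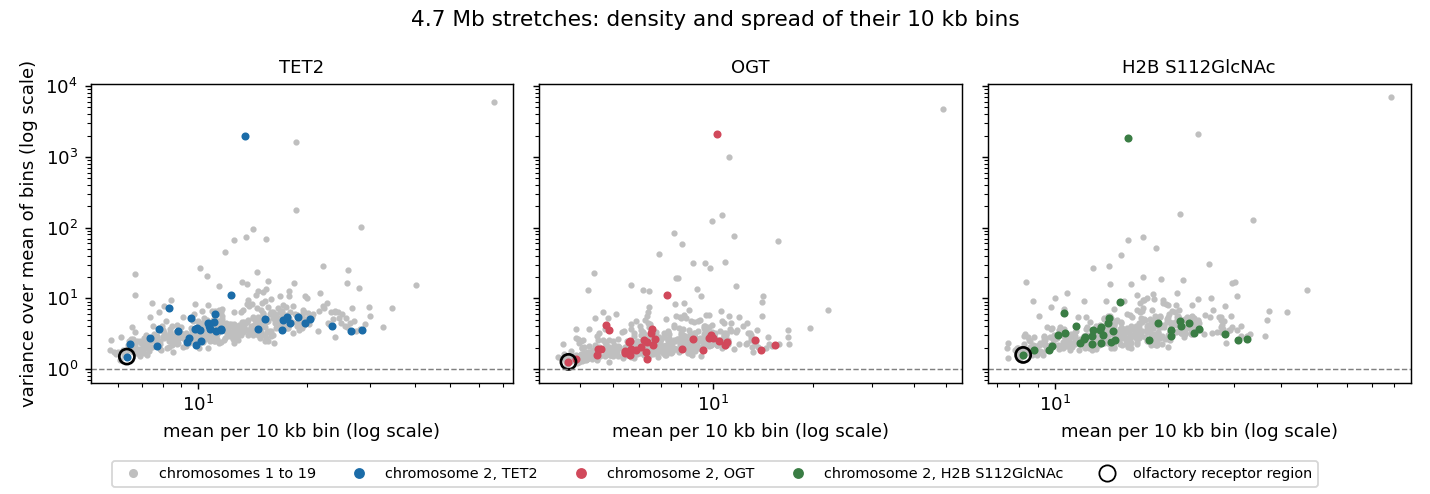
Variance over mean of the 10 kb bins against mean positions per bin, both on log scales, for 4.7 Mb stretches of chromosomes 1 to 19 (grey) and of chromosome 2 (coloured), with 1 panel per library; the dashed line is 1. The circled region lies at the lower left end of chromosome 2 in each library, at 1.5, 1.26 and 1.58.

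Narrow clusters of reads, such as a bound site would give, were nearly lacking. Of 9400 windows of 500 bp, 1 had 8 or more TET2 positions (0.0106%, 95% interval 0.000269 to 0.0593) and 1 had 8 or more of H2B S112GlcNAc. On chromosome 2 the shares were 0.220% and 0.106%. For OGT it was 0 of 9400, which allows up to 0.0392%, and 0.0213% on chromosome 2, so the OGT count was too small to show a difference. The left flank had 18, 0 and 10 such windows of 10000 in TET2, OGT and H2B S112GlcNAc, and the right flank 30, 4 and 17. At a minimum of 4 positions the region had 25 TET2 (0.266%), 6 OGT (0.0638%) and 38 H2B S112GlcNAc windows (0.404%). The chromosome 2 shares were 2.10%, 0.436% and 2.74%. A lower density by itself gives fewer windows past a fixed minimum.

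**Figure D4:**
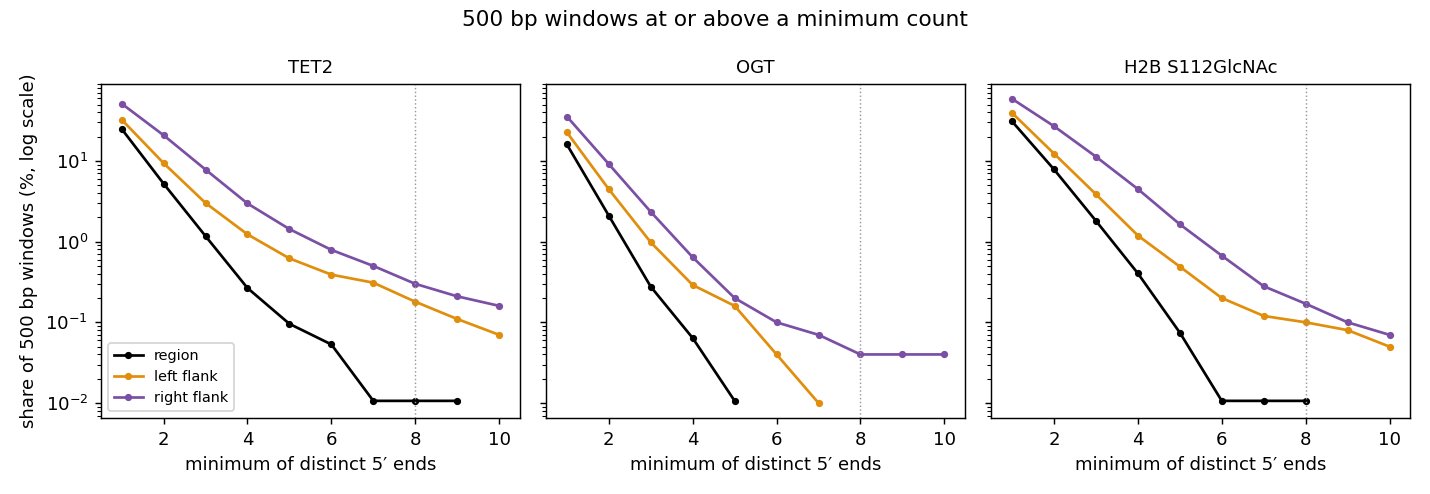
Share of 500 bp windows (%, log scale) with at least the number of distinct 5′ ends on the horizontal axis, for the region and each flank, with 1 panel per library and a dotted line at 8; points at 0 are not drawn. The curve of the region lies lowest and ends at 9 positions in TET2, 5 in OGT and 8 in H2B S112GlcNAc.

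Each window with 8 or more positions reached them in a single library. The TET2 window was chr2:88031001-88031500 with 9 positions, 3 on the plus and 6 on the minus strand, beside 0 OGT and 5 H2B S112GlcNAc positions. The H2B S112GlcNAc window was chr2:88081501-88082000 with 8 positions, 6 plus and 2 minus, beside 0 of TET2 and 0 of OGT. It lies in the H2B S112GlcNAc bin of 21 positions named above. The next TET2 windows, from 87746501 and 87963001, had 6 positions each, and the next of H2B S112GlcNAc, from 85322501 and 87144501, had 5 each. The highest OGT window, chr2:88474501-88475000, had 5 positions, and those from 85534501 and 88190501 had 4. No window had 5 positions in all 3 libraries, and 2 had at least 4. The first was the highest OGT window, with 5 TET2, 5 OGT and 4 H2B S112GlcNAc positions, of which 5, 4 and 4 lay on the plus strand. The second, chr2:88487501-88488000, 13 kb on, had 4, 4 and 5.

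Relative to their own flanks, the libraries differed little in how far they fell. The odds ratio of TET2 to OGT positions in the region against both flanks was 0.979 (0.917 to 1.05), an interval that held 1, as did those against the left flank (1.02, 0.946 to 1.10) and the right flank (0.956, 0.892 to 1.02) alone. For OGT to H2B S112GlcNAc it was 0.950 (0.892 to 1.01), with 0.909 (0.845 to 0.977) against the left and 0.975 (0.912 to 1.04) against the right flank alone. Against the left flank alone OGT to H2B S112GlcNAc was thus lower by more than counting error. With each library over its chromosome 2 median, this ratio was 0.974 (0.919 to 1.03) in the region, an interval that held 1. In the left flank the ratio was 1.07 (1.02 to 1.12), above 1, and in the right flank its interval (0.965 to 1.03) held 1. For TET2 to H2B S112GlcNAc the odds ratio against both flanks was 0.930 (0.882 to 0.981). TET2 was thus lower against H2B S112GlcNAc in the region than in the flanks by more than counting error. This odds ratio was 0.928 (0.872 to 0.987) against the left and 0.932 (0.881 to 0.985) against the right flank alone. Drawn down to the depth of OGT, the value was 0.966 (0.897 to 1.04), which no longer lay apart from 1. With 1 library per antibody this describes these libraries only. In 100 kb stretches of the region, the ratio of TET2 to H2B S112GlcNAc, each over its chromosome 2 median, ran from 0.591 to 1.26 with a median of 0.932. That of TET2 to OGT ran from 0.560 to 1.58 (median 0.950) and that of OGT to H2B S112GlcNAc from 0.522 to 1.32 (median 0.956).

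Bins that differed between antibodies were no more frequent than on the rest of chromosome 2. A bin was counted where the ratio of the libraries, each over its chromosome 2 median, was at least 2 and its 95% interval lay above 1. TET2 was above OGT in 2 bins (0.426%, against 1.0% on chromosome 2) and below in 4 (0.851%, against 1.98%). TET2 was above H2B S112GlcNAc in 3 (0.638%, against 1.14%) and below in 8 (1.70%, against 2.27%). OGT was above H2B S112GlcNAc in 2 (0.426%, against 1.41%) and below in 6 (1.28%, against 1.34%). Fewer reads per bin make the rule harder to meet in the region.

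The bins that met it rested on few positions. For TET2 over OGT they were those from 85780001, with 9 against 0, and from 88920001, with 10 against 0. For OGT over TET2 the 2 with the largest ratio were those from 86510001, with 4 against 0, and from 89030001, with 5 against 1. For TET2 over H2B S112GlcNAc the bin from 86820001 had 10 against 2, a ratio of 5.91 (1.26 to 55.5), and that from 88260001 had 10 against 3. For H2B S112GlcNAc over TET2 the bin from 86510001 had 10 against 0 and that from 86770001 had 11 against 1, a ratio of 9.31 (1.35 to 401). For OGT over H2B S112GlcNAc the bin from 89750001 had 9 against 3, a ratio of 6.50 (1.62 to 37.3), and that from 89070001 had 7 against 3. For H2B S112GlcNAc over OGT the bins from 86210001 and 87510001 each had 10 against 0. Bins with 0 in the lower library tie and were named by position, and the bin from 88080001, with 21 against 0, also met the rule. Chance alone among 470 bins was not tested for these.

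Between libraries the bins of the region went together less than those of the flanks. Over the 470 bins Pearson's r of the counts was 0.307 in TET2 and OGT, 0.327 in TET2 and H2B S112GlcNAc and 0.319 in OGT and H2B S112GlcNAc, and Spearman's rho 0.261, 0.311 and 0.302. In the left flank r was 0.638, 0.736 and 0.663 and in the right flank 0.683, 0.769 and 0.722, over 500 bins each. Over 100 kb stretches r was 0.447, 0.490 and 0.497 in the region (47 stretches) and 0.920 to 0.962 in the flanks (50 each). These are descriptions over bins that share their base composition. Lower counts and a narrower range of density lower r by themselves.

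Gaps without reads were more frequent in the region than in the flanks, though a lower density by itself gives more gaps. Stretches of over 5 kb with no 5′ end in any library numbered 8 in the region, 3 in the left flank and 0 in the right. The longest was 6125 bp in the region, 6737 bp in the left flank and 4846 bp in the right. Of 4700 bins of 1 kb, 1187 (25.3%) had no position in any library, against 16.3% in the left and 4.28% in the right flank. Repeats were few, with 1.06, 1.04 and 1.05 reads per position in TET2, OGT and H2B S112GlcNAc and at most 3 reads at a position. The same position and strand was found in TET2 and OGT 3 times, in TET2 and H2B S112GlcNAc 13 times and in OGT and H2B S112GlcNAc 12 times. Of the positions of the library named first this was 0.100%, 0.435% and 0.692%. In the left flank it was 21, 22 and 15 times (0.436%, 0.457% and 0.525%). In the right flank it was 73, 111 and 72 times (0.835%, 1.27% and 1.48%). A higher density by itself gives more shared positions.

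The strands were unequal. Of the positions in the region 45.2% (43.4 to 47) lay on the minus strand in TET2, 43.5% (41.1 to 45.9) in OGT and 43.5% (42.0 to 45.1) in H2B S112GlcNAc. On all of chromosome 2 it was 47.7%, 47.5% and 47.7%. The left flank had 44.8%, 45% and 44.8% and the right flank 48.8%, 49.2% and 48.2%. Over the 37 stretches of 4.7 Mb of chromosome 2 the minus share went with density, with a Pearson's r of 0.624, 0.604 and 0.616 and a Spearman's rho of 0.746, 0.699 and 0.680, given as a description. Of the 37 stretches, 3 had a lower minus share than the region in TET2, 1 in OGT and 1 in H2B S112GlcNAc. The part of this imbalance in the low counts was not tested.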

How the data were processed

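Each deposited file lists aligned reads, and its score column, a constant, carried nothing and was not used. The submitters' processing notes name mm9, CASAVA 1.4 and Bowtie 0.12.2 without their roles. The treatment of reads with more than 1 match is not stated in the labels. Olfactory receptor genes are near copies of each other, so this treatment can change their counts, and its part was not tested. The authors' OGT file names chromosomes by accession. On chromosome 2 it shared 185 of its 200 positions with the most reads with the TET2 file, against 151 and 149 when moved by 1 bp. A position is a distinct 5′ end and strand, counted once and unshifted. Medians were taken over chromosome 2 bins from 3 Mb on that held a read in any library.

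Intervals are 95% and cover counting error only: exact Poisson for densities, Clopper-Pearson for shares and ratios, and exact conditional for odds ratios (scipy 1.17.1). Reads copied by PCR are not separate molecules. Since each antibody has a single library, no test between antibodies was made. The rule for calls between antibodies and the interval of a ratio were tested on simulated data with counting noise alone. The calls were simulated at the chromosome 2 medians. The ratio was simulated near the TET2 count of the region and near its density over both flanks. The intervals of densities, shares and odds ratios were not simulated. For the calls the region had a lower density than that, and for both it had more spread, so its own case was not fully simulated. Gene names came from RefSeq tables of GRCm38.p6, and none of its coordinates were used against the mm9 files. The members, lists and rules were chosen with earlier results of these data known. Named bins are the 5 with the most and 3 with the fewest positions in each library and the 2 with the largest ratio for each pair and direction. Named windows are the 3 highest of each library, since none had 8 positions in all 3. Stretches of equal length were used where at least 90% of their bins held a read. The comparison with these stretches, the strand shares, the window minimum of 4 and the region extended to 90200000 were chosen after seeing the data, as were the windows and 100 kb stretches named outside these rules.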

Additional observations from a re-analysis of the deposited data

How the results depend on the processing

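No paired analysis was possible because there is a single library for each antibody. Of 159 values under an alternative, 117 stayed within 1.5 times (counts and variance over mean) or the counting interval (ratios). Another 42 moved and 0 changed direction. Only a ratio whose main interval lay apart from 1 could be labelled as changed in direction, so the 0 says nothing on counts or spread. Some values could not move. OGT, as the smallest library, was not drawn down. The genome medians of OGT (6) and H2B S112GlcNAc (13) equalled their chromosome 2 medians. Except where the alternative's own construction shows it (fewer positions, another minimum or divisor), the cause of a move was not tested. The density over the chromosome 2 median was 0.610 (TET2) and 0.551 (OGT) with every read kept, 0.605 (TET2) drawn down to the smallest library, and 0.635 (TET2) and 0.586 (H2B S112GlcNAc) in 5 kb bins. It was 0.477, 0.485 and 0.507 over the chromosome 2 mean, 0.635 (TET2) over the genome median, and 0.545 (TET2) and 0.50 (OGT) as the median of bins. The density over flanks was 0.432, 0.445 and 0.471 with flanks of 2.5 Mb and 0.545, 0.429 and 0.571 from medians of bins. TET2 windows numbered 2 with every read, 0 drawn down, 5 and 0 at a minimum of 6 and 10, 0 at a minimum in proportion to depth and 3 every 250 bp. H2B S112GlcNAc windows numbered 0 with the 100 bp shift, drawn down, at a minimum of 10 and in proportion to depth. TET2 bins at 2 times the median numbered 1 with every read, 3 drawn down and 1 over the genome median, and H2B S112GlcNAc bins 1 drawn down. Low H2B S112GlcNAc bins numbered 278 over the chromosome 2 mean. Bins that differ numbered, for TET2 over OGT, 5 with every read and 4 over the genome median. For OGT over TET2 they were 2 drawn down, 2 over the chromosome 2 mean and 2 over the genome median. For TET2 over H2B S112GlcNAc they were 8 with every read and 6 over the genome median, and for the reverse 5 over the genome median. For OGT over H2B S112GlcNAc they were 4 drawn down, and for the reverse 10 with every read. Places high in all 3 libraries covered 0 of the 1 kb bins of the region and 3 of those of the flanks.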
